A study of Mus musculus with 6 samples.

Results

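Diacylglycerol kinases convert diacylglycerol, a membrane lipid messenger, into phosphatidic acid. All mouse genes that carry a diacylglycerol kinase symbol were taken by name through the GENCODE M21 annotation (build GRCm38), which gave 10 genes of 36008 in the gene table and 66 of 118783 transcripts. The genes are Dgka, Dgkb and Dgkg (type I), Dgkd, Dgkh and Dgkk (type II), Dgke (type III), Dgkz and Dgki (type IV) and Dgkq (type V).

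The samples were poly(A)+ RNA libraries from the hippocampus of 2-week-old female B6J mice, 3 wild-type (WT) and 3 Prmt9 knockout (KO) littermates, with each library made from a separate animal. Prmt9 encodes an arginine methyltransferase whose substrate SF3B2 belongs to the splicing machinery, and the study asked which genes change in level or splicing without it. In the KO mice CMV-Cre had deleted a floxed Prmt9 exon in the whole body, so that a difference in the hippocampus need not arise in its neurons. The files hold transcript counts and levels, which were read here for each kinase gene, its transcripts and its alternative exons.

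When a receptor activates phospholipase C, diacylglycerol builds up in the membrane and recruits protein kinase C, RasGRP, chimaerin and Munc13 proteins through their C1 domains. Diacylglycerol kinases end that signal and start the phosphatidic acid signal, and the phosphatidic acid also feeds the resynthesis of phosphatidylinositol. At hippocampal excitatory synapses DGKzeta binds the scaffold PSD-95, DGKbeta localises to spines and DGKiota acts on the presynaptic side.

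Several kinase transcripts differ by a coding cassette exon, and 5 such exons are shown: those of Dgkg and Dgki for their separate groups, that of Dgkb as a microexon, and those of Dgkd and Dgkh as paralogous exons. No test called any of them. Each exon is in capitals between the nearest 10 bases of the neighbouring exons in lower case, 5′ to 3′ on the coding strand, as read from the GENCODE M21 transcript sequences. The Dgkg exon (chr16:22572600-22572716, minus strand, codons 331 to 369 of Dgkg-202) and the Dgki exon below were the coding cassette exons of the family whose inclusion did not overlap between genotypes, which held for 10.7% of all splicing events tested.
Dgkg, 117 bases: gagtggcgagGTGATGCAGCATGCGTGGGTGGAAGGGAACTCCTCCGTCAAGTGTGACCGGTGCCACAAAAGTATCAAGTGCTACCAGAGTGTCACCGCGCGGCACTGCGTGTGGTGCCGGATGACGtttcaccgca
The Dgki exon (chr6:36994859-36994921, minus strand) is exon 21 of 34 in Dgki-203 and is absent from Dgki-201.
Dgki, 63 bases: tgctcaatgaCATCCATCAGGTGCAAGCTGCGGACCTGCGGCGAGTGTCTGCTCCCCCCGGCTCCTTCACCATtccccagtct
The Dgkb exon (chr12:38087573-38087593, plus strand) is a microexon that adds codons 50 to 56 in Dgkb-205.
Dgkb, 21 bases: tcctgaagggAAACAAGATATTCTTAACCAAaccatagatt
The exons of Dgkd (chr1:87941369-87941499, plus strand, exon 29 of 30 in Dgkd-201) and Dgkh (chr14:78575887-78576017, minus strand, exon 27 of 28 in Dgkh-206) are of equal length, and 93 of their 131 bases (71.0%) were identical without gaps.
Dgkd, 131 bases: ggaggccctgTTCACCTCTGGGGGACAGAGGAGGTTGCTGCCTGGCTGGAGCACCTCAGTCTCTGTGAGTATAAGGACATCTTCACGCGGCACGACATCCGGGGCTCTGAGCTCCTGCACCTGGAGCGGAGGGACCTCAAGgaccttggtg
Dgkh, 131 bases: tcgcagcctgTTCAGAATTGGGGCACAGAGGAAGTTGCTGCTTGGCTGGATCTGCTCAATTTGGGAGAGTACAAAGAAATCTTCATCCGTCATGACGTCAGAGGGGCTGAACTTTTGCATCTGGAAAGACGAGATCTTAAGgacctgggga
The Dgkg, Dgki and Dgkb exons are whole numbers of codons long, while the Dgkd and Dgkh exons are not, so that skipping them shifts the reading frame.

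The files held 194098391 to 249217021 estimated counts in the WT libraries and 222085851 to 286771677 in the KO libraries. Prmt9 itself stood at 11.78, 15.25 and 14.96 TPM in WT and at 3.933, 4.61 and 4.67 TPM in KO, with no overlap, where TPM is a transcript level scaled to transcript length and library total. Its log2 fold change was -1.71 ± 0.10 (SE, adjusted p = 0.0327, edgeR quasi-likelihood test), in the direction of the label but short of the adjusted p limit of 0.01 used for calls here. Both mice numbered 1 stood apart from the other 4: the first principal component, with 81.7% of the variance of log2 counts scaled to library size, put WT replicate 1 at 50.3, KO replicate 1 at 35.3 and the others between -23.7 and -18.4. In WT replicate 1, 37.4% of the transcripts in the files were at 0, against 22.8% to 24.8% in the other libraries. Some of the results below are therefore also given without either or both of these libraries.

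Markers of the hippocampal cell types were all detected, and no gene of the 53 on the marker lists was at or near 0 in all mice. The summed level of the 9 oligodendrocyte-lineage markers, led by the myelin gene Mbp, was 2249 TPM in WT replicate 1 and 1249 TPM in KO replicate 1, against 7669 to 11010 TPM in the other mice. The 6 markers of pyramidal and granule neurons summed to 1709 and 1797 TPM in those libraries, against 2738 to 2916 TPM. The 6 astrocyte markers summed to 1325 to 1894 TPM in WT and 1411 to 2037 TPM in KO, and the lowest value of each genotype was that of the mouse numbered 1. Microglial markers ran from 224.3 to 258.5 TPM in WT and 188.1 to 245.6 TPM in KO, interneuron markers from 1647 to 1853 TPM and 1567 to 1732 TPM, and endothelial and mural markers from 149.3 to 203.4 TPM and 132.6 to 207.7 TPM. The choroid plexus and ependyma list, led by Ttr, ranged from 614 to 7273 TPM in WT and from 871 to 3343 TPM in KO, with the highest sum in WT replicate 1. Markers of striatum and thalamus summed to 36.06 to 47.74 TPM in WT and 41.74 to 47.11 TPM in KO. None of the 53 genes had an unadjusted p under 0.05 between genotypes.

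All 10 kinase genes were detected, and 1 of them made up most of the summed family TPM. Dgkz (chr2:91932824-91975864), whose type IV product carries ankyrin repeats and a MARCKS-like domain, stood at 327.9, 446.2 and 431.2 TPM in WT and at 312.0, 423.8 and 439.5 TPM in KO. That was 56.9% to 64.3% of the summed family TPM in WT and 56.2% to 58.4% in KO. The family summed to 679.6 ± 147.4 TPM in WT and 680.9 ± 125.2 TPM in KO (SD, n = 3 each, exact two-sided permutation p = 1.0, where 0.1 is the smallest p that 3 against 3 mice allow). TPM is scaled to transcript length, so reads assigned to short transcripts weigh more in the total of a gene. Dgkz-209, a retained-intron transcript of 480 bases, held 14.7% of Dgkz TPM in WT but 1.86% of its estimated counts. Retained-intron transcripts together held 83.7% of Dgkq TPM in WT. Comparisons of TPM between members, here and in the order below, include such transcripts.

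**Figure D1:**
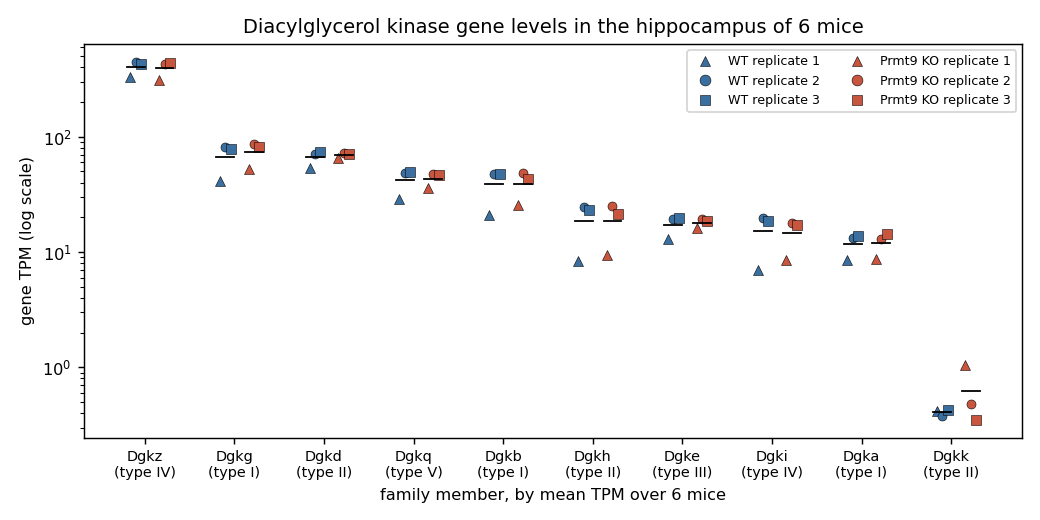
Gene TPM on a log axis for the 10 diacylglycerol kinases, ordered by their mean over 6 mice, with 1 symbol per mouse and a bar at each genotype mean. Dgkz lies above 300 TPM in every mouse, Dgkk lies near or under 1 TPM, and the triangles of the mice numbered 1 lie lowest for every other member.

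In both genotypes the order by mean TPM was Dgkz, Dgkg, Dgkd, Dgkq, Dgkb, Dgkh, Dgke, Dgki, Dgka and Dgkk. Between neighbours in that order, the ranges of the WT mice were separate for Dgkz over Dgkg, Dgkd over Dgkq and Dgka over Dgkk, and overlapped for the other 6 pairs. In KO, Dgkb over Dgkh was separate as well. Type I genes made 16.9% ± 2.72 of the family TPM in WT and 18.1% ± 1.72 in KO (SD, n = 3), type II genes 12.5% ± 0.353 and 13.2% ± 1.02, and type IV genes 61.8% ± 3.41 and 59.7% ± 1.03. None of these shares was separate between genotypes.

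No kinase gene passed the test for a difference in level between genotypes. At the limits of an adjusted p below 0.01 and a change over 1.5-fold, edgeR called 0 of the 10 members, where it called 0.0% of the 20315 genes tested. At an unadjusted p under 0.05 it again held none of the 10, against 1.24% of all genes, and the members' p ran from 0.264 to 0.968. DESeq2, which called 0.0106% of 28250 genes, called none of the 10 either, with 0.229 as the smallest unadjusted p of a member. With so few calls among all genes, a count of 0 members does not set the family apart. The TPM ranges of WT and KO mice were separate for 0 of the 10 genes, against 5.96% of the 15180 genes with a mean of at least 1 TPM. In bulk tissue, fewer cells of a type and less RNA per cell cannot be told apart, here as in each value that follows.

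Among the calcium-binding type I enzymes, Dgkg was the highest, at 40.92, 80.99 and 79.03 TPM in WT and 52.35, 86.41 and 81.79 TPM in KO. The genotypes overlapped, with a log2 fold change of 0.08 ± 0.23 (SE, adjusted p = 1.0, edgeR). Dgkb, whose product localises to spines, stood at 20.84, 47.82 and 47.99 TPM in WT and 25.77, 48.02 and 42.75 TPM in KO. The mouse numbered 1 was lowest in each genotype, and the log2 fold change was -0.04 ± 0.26. Dgka (chr10:128720134-128744855), best known as a brake on T cell activation, was at 8.519, 13.36 and 13.67 TPM in WT and 8.712, 12.98 and 14.25 TPM in KO. It differed by -0.05 ± 0.18 on the log2 scale, again with overlapping groups.

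Type II enzymes carry a PH domain and a catalytic domain split in parts. Dgkd (chr1:87853287-87945180) was at 53.52, 70.84 and 74.17 TPM in WT and 66.06, 72.41 and 70.27 TPM in KO, and its 95% interval ran from 0.85-fold to 1.17-fold. That interval and that of Dgke were the narrowest of the family. Dgkh, a gene linked to bipolar disorder in human genetics, was at 8.43, 24.54 and 23.31 TPM in WT and 9.366, 24.91 and 21.56 TPM in KO. Its levels in both mice numbered 1 lay under 10 TPM and those of the other 4 above 20 TPM, so its interval was wide, from 0.502-fold to 1.79-fold. Dgkk (chrX:6779306-6948363) was the rarest member at 0.4212, 0.3788 and 0.4295 TPM in WT and 1.051, 0.4825 and 0.3512 TPM in KO, with 339 to 956 estimated counts per mouse. Its log2 fold change of 0.56 ± 0.46 (adjusted p = 1.0, edgeR) rested on KO replicate 1 and was -0.10 without that mouse.

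Dgke (chr11:89035179-89066850), the type III enzyme with a preference for arachidonate-containing diacylglycerol, was at 12.98, 19.2 and 19.65 TPM in WT and 16.24, 19.39 and 18.46 TPM in KO. The log2 fold change was 0.03 ± 0.09. Of the type IV genes, Dgkz differed by -0.09 ± 0.12 and Dgki by -0.11 ± 0.37 on the log2 scale. Dgki was at 7.042, 19.84 and 18.72 TPM in WT and 8.544, 18.03 and 17.03 TPM in KO. Dgkq (chr5:108646693-108669672), the type V gene, was at 29.01, 48.33 and 49.73 TPM in WT and 36.24, 47.36 and 46.69 TPM in KO, with a log2 fold change of 0.03 ± 0.14. In each of these genes the groups overlapped.

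**Figure D2:**
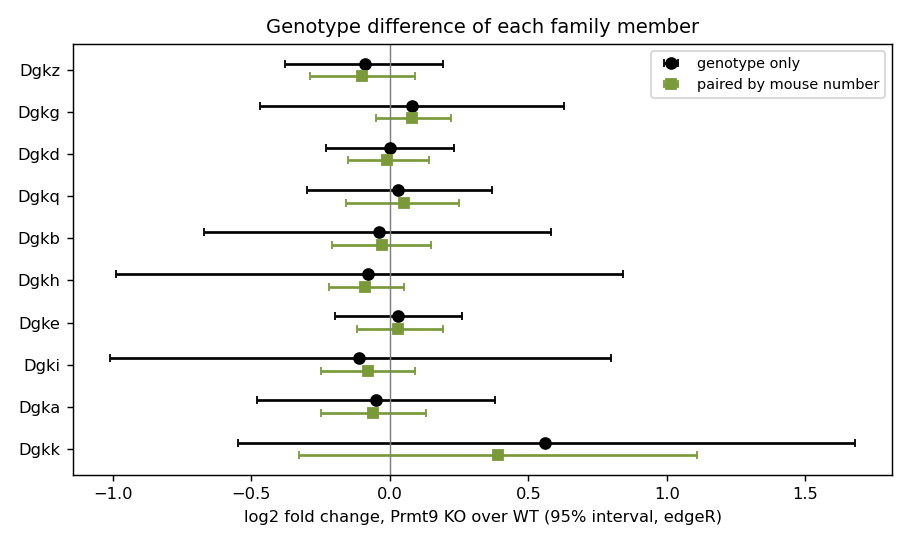
Log2 fold change of KO over WT with its 95% interval for each kinase gene from edgeR, fitted with genotype only (circles) and with the mouse number as a pair (squares). All intervals include 0, and pairing narrows them most for Dgkh, Dgki and Dgkb.

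How large a genotype effect these libraries leave room for differed between members and between fits. Over the 9 genes with a mean of at least 1 TPM, the 95% intervals spanned 0.498-fold to 1.79-fold with genotype alone. With mice of the same number treated as pairs they spanned 0.819-fold to 1.19-fold, and the paired unadjusted p of the 10 members ran from 0.161 to 0.927. Without both mice numbered 1, edgeR gave Dgki a log2 fold change of -0.14 with an unadjusted p of 0.0219 (adjusted p = 0.232). Dgki was the only member under 0.05 in any of the fits run. In that fit 3363 of the 20479 genes tested were under 0.05, so 1 of 10 members does not set the family apart. In those 4 mice the TPM ranges of Dgkg, Dgki and Dgkq were separate between genotypes, 3 of 10 members, where 51.2% of the genes with a mean of at least 1 TPM were separate.

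In TPM, kinase levels differed more between animals of a genotype than between genotype means. That spread depended on the scaling. In CPM, counts scaled to library size with TMM, the WT spread relative to the mean was narrower for all members but Dgkk. WT Dgkd was at 66.17 ± 11.08 TPM but 167.0 ± 4.693 CPM, and WT Dgkz at 401.8 ± 64.39 TPM but 564.5 ± 14.47 CPM (SD). WT Dgkh stayed wide at 140.3 ± 48.46 CPM, and KO Dgkd was wider at 166.5 ± 10.63 CPM against 69.58 ± 3.234 TPM. In TPM, as in the ratios below, both mice numbered 1 lay below the other 4 mice for 9 of the 10 members, all but Dgkk. That held for 48.7% of the genes with a mean of at least 1 TPM. WT replicate 1 had 0.352 times the Dgkh level of the mean of the other WT mice, 0.365 times the Dgki level and 0.435 times the Dgkb level. KO replicate 1 had 0.403, 0.487 and 0.568 times the levels of the other KO mice for the same genes. Dgkz was at 0.747 times in WT and 0.723 times in KO, and Dgkd at 0.738 times and 0.926 times. The median over all such genes was 0.783 in WT and 0.919 in KO.

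Among the 9 members at 1 TPM or more, those in long genes were the lowest in these mice. Dgkb spans 816.5 kb (chr12:37817726-38634239), Dgki 454.2 kb (chr6:36846022-37300184), Dgkg 188.8 kb (chr16:22468461-22657221) and Dgkh 174.0 kb (chr14:78558750-78732776), and these 4 had the smallest ratios in both genotypes. The other 5 of the 9 span 22.98 to 91.89 kb. Dgkk, left out here for its low level, spans 169.1 kb and went the other way, at 1.04 times in WT and 2.52 times in KO. Across the 9 members Spearman's rho between gene length and ratio was -0.57 in WT and -0.63 in KO, and across all genes with a mean of at least 1 TPM it was -0.27 and -0.18. The points of each set share their libraries, so the coefficients are given as descriptions. Among genes over 100 kb the median ratio was 0.651 in WT and 0.836 in KO, against 0.842 and 0.953 among genes under 50 kb. The sums of oligodendrocyte and pyramidal neuron markers were lower in the same mice, as given above, and their part in the kinase levels was not tested.

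**Figure D3:**
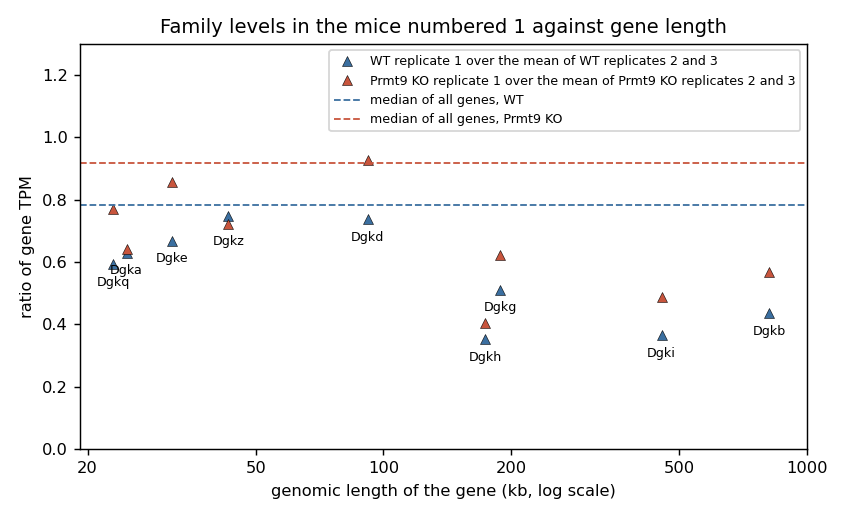
Gene TPM of the mouse numbered 1 divided by the mean of the other mice of its genotype, against genomic gene length (log axis), for the 9 members with a mean of at least 1 TPM. Dashed lines give the median ratio of all genes, 0.783 in WT and 0.919 in KO, and Dgkh, Dgki, Dgkb and Dgkg lie lowest.

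In Dgkz and Dgkq much of the gene's TPM was assigned to transcripts not annotated as protein-coding, although less of its estimated counts was. Transcripts annotated as protein-coding made 93.1% to 98.8% of the gene TPM of Dgkb and Dgkg and 92.9% to 94.0% of that of Dgkh. In Dgkz they made 40.8%, 55.1% and 53.0% in WT and 48.2%, 52.6% and 51.8% in KO. In Dgkq the only protein-coding transcript, Dgkq-201, held 0.71%, 4.64% and 7.83% in WT and 5.37%, 7.14% and 5.53% in KO. Retained-intron transcripts, 7 of the 11 annotated for Dgkq, held 83.7% ± 1.17 of its TPM in WT and 81.5% ± 1.47 in KO (SD, n = 3). Several of them are short, such as Dgkq-206 of 796 bases and Dgkq-211 of 749 bases, and TPM weighs reads by transcript length. By estimated counts, protein-coding transcripts held 70.1% of Dgkz in WT and 71.0% in KO, and 7.97% and 10.6% of Dgkq. The retained-intron transcripts of Dgkq held 68.6% and 66.2% by counts.

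**Figure D4:**
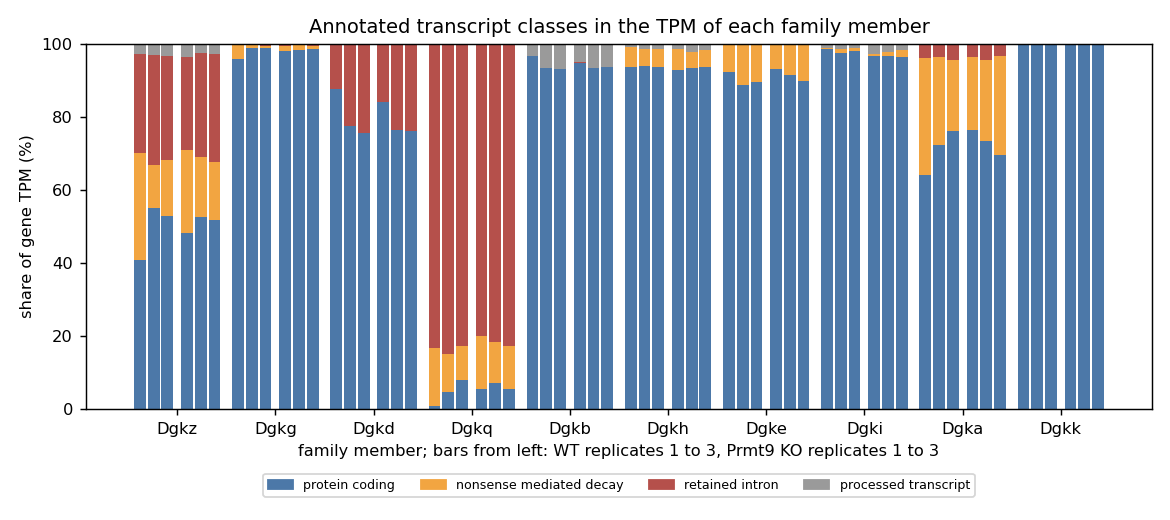
Share of each member's gene TPM held by protein-coding, nonsense-mediated decay, retained-intron and processed transcripts in each mouse, WT bars left and KO bars right within a gene. Retained-intron transcripts fill 79.9% to 85.0% of Dgkq, and protein-coding transcripts fill nearly all of Dgkg, Dgkb, Dgkh, Dgki and Dgkk.

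No family transcript and no member passed the tests for changed transcripts. Of 56 family transcripts past the count filter, edgeR called 0, where it called 0.0% of 75661 transcripts. None of the 56 had an unadjusted p under 0.05, against 1.61% of all. DESeq2, which called 0.112% of all transcripts it tested, called none of them. For transcript usage, the share of a gene's RNA held by each transcript, edgeR called 0 of the 10 members, against 0.17% of 13560 genes. None was under an unadjusted p of 0.05, against 1.73% of the genes, and the smallest Simes p of a member was 0.842 (Dgke, adjusted p = 1.0, edgeR).

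Without passing a test, the share of the shorter Dgkg coding transcript was separate between genotypes. Dgkg-201, which lacks the cassette exon of 117 bases and encodes 749 codons, held 17.1%, 17.0% and 16.3% of Dgkg in WT and 17.9%, 20.5% and 19.3% in KO. Every KO mouse was above every WT mouse, by 2.4 percentage points on average, and the exact two-sided permutation p was 0.1, the smallest possible. Dgkg-202, with the exon and 788 codons, held 78.9%, 81.8% and 82.5% in WT and 80.3%, 77.9% and 79.4% in KO, and its groups overlapped. Over the family, 3 of the 23 transcripts with a mean share of at least 10% had separate groups (Dgkg-201, Dgki-201 and Dgkq-202), against 9.45% of the 29089 such transcripts in all genes. By shares of estimated counts the number was again 3, against 9.27%. In the mice numbered 2 and 3 alone it was 6 of 23, against 42.1%.

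Most of Dgki was held by Dgki-203 and Dgki-201, of 1071 and 899 codons, with Dgki-203 the higher in every mouse. Dgki-201 held 43.4%, 38.0% and 38.2% in WT and 37.4%, 37.7% and 35.9% in KO. The groups did not overlap, although WT replicate 1 alone lay above 40%. Dgki-203 held 54.9%, 59.3% and 59.8% in WT and 59.2%, 59.1% and 59.8% in KO. By estimated counts Dgki-203 held 68.3% in WT and 70.0% in KO and Dgki-201 held 30.3% and 28.2%. In Dgkq the retained-intron transcript Dgkq-202 held 19.9%, 20.9% and 19.4% in WT and 23.4%, 20.9% and 21.1% in KO, where the values of WT replicate 2 and KO replicate 2 differed only past the digits shown. Dgkq-206 held 18.7% ± 2.20 in WT and 16.7% ± 1.01 in KO. Dgkq-211 held 13.2% to 17.1% in WT and 13.9% to 16.9% in KO.

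Both Dgke transcripts that encode the 564-codon enzyme have the same coding bases and differ by 3139 bases outside them. Dgke-201 held 50.9% ± 1.05 in WT and 49.2% ± 2.09 in KO, and Dgke-202 held 39.3% ± 1.04 and 42.3% ± 2.66 (SD, n = 3). Dgkb-201 and Dgkb-203 likewise share their 795 codons but not their length, 6373 against 4085 bases. Dgkb-203 held 0.0%, 17.6% and 21.2% in WT and 5.1%, 22.6% and 19.5% in KO, so that it was lowest in both mice numbered 1. Dgkb-201 was highest there, at 77.2% in WT replicate 1 and 75.2% in KO replicate 1 against 57.3% to 61.8% in the other mice. Dgkb-205, the short form of 282 codons with the microexon, held 15.9% ± 3.08 in WT and 13.8% ± 1.40 in KO.

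The Dgkz transcripts above 10% were Dgkz-201 and Dgkz-202, of 929 and 946 codons, the nonsense-mediated decay transcript Dgkz-212 and the retained-intron fragment Dgkz-209. Dgkz-201 held 27.4% ± 3.18 in WT and 26.4% ± 1.73 in KO, and Dgkz-202 held 20.3% ± 5.60 and 22.5% ± 0.71. Dgkz-212 held 28.7%, 11.2% and 14.3% in WT and 22.2%, 15.8% and 14.8% in KO, highest in the mouse numbered 1 of each genotype. Dgkz-209, of 480 bases, held 14.7% ± 1.15 and 13.5% ± 1.51, but 1.86% and 1.73% by estimated counts. In Dgka, Dgka-201 held 70.8% ± 6.10 in WT and 73.1% ± 3.40 in KO, and the nonsense-mediated decay transcript Dgka-203 held 25.3% ± 6.30 and 23.1% ± 3.61.

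Among type II genes, Dgkd-201 held 71.6% ± 2.94 of Dgkd in WT and 70.9% ± 2.45 in KO. The retained-intron transcript Dgkd-204 held 4.72%, 13.4% and 15.6% in WT and 10.3%, 13.6% and 14.7% in KO, lowest in both mice numbered 1. Dgkh-202, of 15257 bases, held 86.2% ± 6.29 of Dgkh in WT and 84.1% ± 5.59 in KO. Dgkk-201 held 30.5%, 99.7% and 93.9% of the few Dgkk counts in WT and 66.8%, 96.0% and 84.5% in KO, and Dgkk-202 the rest. The transcript with the lowest usage p within its gene held under 4% of the gene in every mouse for 7 members, Dgkb-204, Dgkg-203, Dgkd-202, Dgkh-204, Dgkz-213, Dgki-206 and Dgkq-204. For the other members it was Dgka-203, Dgkk-202 and Dgke-203, and the last held 9.77% ± 1.75 of Dgke in WT and 8.52% ± 1.67 in KO.

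Inclusion of an alternative segment is given as percent spliced in (PSI), the TPM of the transcripts that hold it over that of all transcripts that hold or skip it. Of 27 family events that could be tested, in 9 genes, limma called 0, where it called 0.0% of 23432 events. A call needed an adjusted p no higher than 0.01 together with a change in PSI of 5 percentage points or more. At these limits the study, which counted reads over annotated and cryptic events with rMATS, reported many altered events on Prmt9 loss. The test here used transcript levels over annotated exons, so its counts and those of the study are not on the same measure. None of the 27 had an unadjusted p under 0.05, against 3.14% of all events, and the smallest was 0.247. In 4 of the 27 the PSI values of WT and KO mice were separate, against 10.7% of all events. Dgkq held 14 of the 27 events, which share transcripts and are not independent of each other.

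The Dgkg exon of 117 bases was included at 82.2%, 82.8% and 83.5% in WT and 81.8%, 79.2% and 80.4% in KO. All KO mice were lower, with a difference of means of -2.36 percentage points (exact two-sided permutation p = 0.1, limma adjusted p = 1.0). The difference was -3.35 points in the mice numbered 2 and 3 alone and -1.97 points by estimated counts. It stayed under the limit of 5 points in each case.

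The Dgki exon of 63 bases was included at 54.9%, 59.7% and 60.1% in WT and 60.3%, 60.3% and 60.7% in KO, a difference of 2.17 points that fell to 0.478 without WT replicate 1. A Dgki choice between an exon of 109 bases (chr6:37149549-37149657) and one of 75 bases (chr6:37296673-37296747) gave 56.2%, 61.4% and 61.4% of the former in WT and 61.5%, 61.5% and 63.4% in KO. That difference of 2.48 points was 0.743 without WT replicate 1. Both events set Dgki-203 against Dgki-201, so they repeat the shares of those transcripts. The last separate event was a 2-base shift of a 3′ splice site in Dgkq (chr5:108653220-108653221), used by the retained-intron transcript Dgkq-202, at 39.6% ± 0.505 in WT and 41.3% ± 0.152 in KO.

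The paralogous exons of Dgkd and Dgkh were used very differently in the same mice. DGKdelta and a form of DGKeta end in a sterile alpha motif, a domain through which these kinases self-associate. The Dgkd exon of 131 bases was included at 87.8%, 91.8% and 92.7% in WT and 88.5%, 92.1% and 92.0% in KO. Its Dgkh counterpart was included at 5.74%, 15.8% and 16.5% in WT and 8.99%, 20.2% and 13.8% in KO. Inclusion was lower in the mouse numbered 1 of each genotype for both exons, and neither exon was separate between genotypes. The Dgkh value leans on transcript models of very unequal length, and by estimated counts it was 3.26% in WT and 3.69% in KO.

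The Dgkb microexon of 21 bases was included at 20.1%, 13.9% and 14.5% in WT and 13.5%, 12.9% and 15.4% in KO. WT replicate 1 was highest and the other mice lay between 12.9% and 15.4%. By estimated counts the means were 4.19% in WT and 3.58% in KO, since the microexon is held by the short Dgkb-205. The frame-shifting Dgka exon of 89 bases, whose loss gives the nonsense-mediated decay transcript, was included at 66.7%, 74.8% and 79.6% in WT and 79.2%, 76.8% and 72.0% in KO. Of the remaining Dgkh exons, that of 93 bases was included at 94.4% to 95.3% in WT and 94.3% to 95.5% in KO and that of 35 bases at 5.05% ± 0.427 and 4.96% ± 0.631, or 1.46% in both genotypes by estimated counts.

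**Figure D5:**
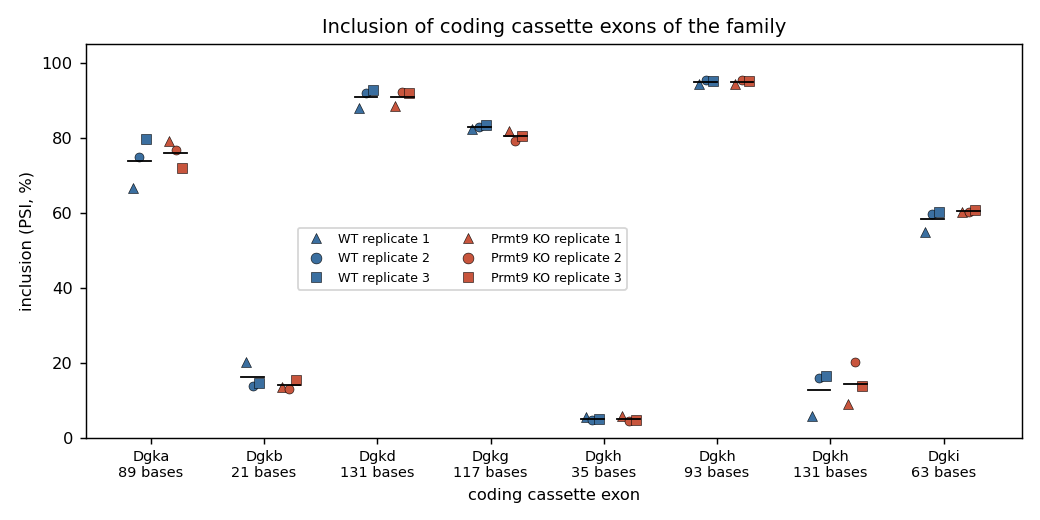
Inclusion (PSI, %) of the 8 tested coding cassette exons of the family in each mouse, with a bar at each genotype mean. The Dgkd and Dgkh exons of 131 bases lie near 90% and below 21%, and the Dgkg exon of 117 bases is lower in every KO mouse than in every WT mouse.

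The genes around the kinases showed the same lack of calls. Of 58 genes that make, bind or remove diacylglycerol or phosphatidic acid, edgeR called 0, against 0.0% of all genes, and 3 (5.17%) had an unadjusted p under 0.05, against 1.24% of all genes. With mice paired by number, 7 of the 58 (12.1%) were under an unadjusted p of 0.05, against 5.75% of all genes, and the smallest adjusted p of the 58 was 0.79 (edgeR). These were Plce1, Plch1, Plch2, Dagla, Chn2, Unc13c and Agpat1, of which Plch2, Dagla, Chn2 and Agpat1 were named after their values were seen. Of the 58, 18 had a log2 fold change above 0 and 39 below it, against 9532 above and 10783 below among the 20315 genes tested. The median was -0.06 for the 58, -0.02 for the family and -0.01 for all genes tested. In 38 of the 58 both mice numbered 1 lay below the other 4 (48.7% of all genes), and the ranges of the genotypes were separate for 5 of them (5.96% of all genes).

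Among 12 phospholipase C genes, which make diacylglycerol, Plch1 was at 2.243, 3.674 and 2.927 TPM in WT and 4.17, 4.044 and 4.629 TPM in KO, with a log2 fold change of 0.44 ± 0.12 (adjusted p = 1.0, edgeR). Its groups were separate. Plce1 was at 3.43 ± 0.798 TPM in WT and 4.36 ± 0.473 TPM in KO, with overlapping groups, and Plcg1, the highest of the 12, at 65.8 ± 13.0 and 68.6 ± 5.43 TPM. Of 19 diacylglycerol targets, Unc13c, which encodes the vesicle-priming protein Munc13-3, was at 6.90 ± 1.75 TPM in WT and 9.19 ± 1.67 TPM in KO (log2 fold change 0.33 ± 0.12, adjusted p = 1.0, edgeR). Chn1, the highest target and the gene of alpha-chimaerin, was at 858 ± 253 and 853 ± 198 TPM.

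For the enzymes that compete for diacylglycerol or act on phosphatidic acid, none reached an unadjusted p of 0.05 with genotype alone (edgeR). In the fit paired by mouse number, Dagla (unadjusted p = 0.0176, edgeR) and the phosphatidic acid producer Agpat1 (0.0491) were under it. Mgll, which ends the lipase route to glycerol, was the highest of its 3 genes at 129 ± 25.6 TPM in WT and 128 ± 28.1 TPM in KO. Plpp3, a phosphatidic acid phosphatase, was at 153 ± 43.0 and 148 ± 29.4 TPM, the acyltransferase gene Agpat3 at 158 ± 18.2 and 153 ± 22.3 TPM and Dgat2, which makes triacylglycerol, at 74.2 ± 1.94 and 71.0 ± 3.89 TPM. The phosphatidylinositol transfer protein gene Pitpna was at 151.2, 205.3 and 204.9 TPM in WT and 198.4, 202.7 and 198.6 TPM in KO.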

How the data were processed

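Total RNA from the hippocampus of 3 WT and 3 Prmt9 KO mice was made into stranded poly(A)+ libraries and sequenced as read pairs. The authors quantified transcripts with kallisto and deposited estimated counts and TPM per transcript for each mouse and a TPM table per gene. The submitters' processing notes list kallisto 0.46.0 and STAR 2.7.1a. Of 118783 transcripts, 116622 matched GENCODE M21, and splicing tables were not used.

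Estimated counts were summed per gene, rounded and tested with edgeR 4.0.16 (TMM, filterByExpr, quasi-likelihood F test, Benjamini-Hochberg over all genes), and per transcript likewise, with diffSpliceDGE for usage. Events were built from annotated exons and tested with limma 3.58.1 on log2 ratios of including to excluding TPM, each plus 0.1, for events that reached 1 TPM in all mice, with a mean PSI from 5% to 95% in a genotype. DESeq2 1.42.0, other filters, pseudocounts, left-out mice and a paired fit were alternatives. The scripts were tested on simulated data with large changes and no outlying mice, which does not measure how small a change they could find here. Single values had exact permutation tests (SciPy 1.17.1). Intervals are 95%. Depth was 194098391 to 286771677 estimated counts per library, and the fitted intervals include the spread between mice.

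Mice of the same number deviated together from their group means (r = 0.808, 0.743 and 0.704, all above 0.1), which paired them by the rule used, although mice numbered 2 and 3 of different numbers correlated about as well (0.674 and 0.758). The members and gene lists were chosen with earlier results of these data known. Named were all members with their gene levels, transcripts with a mean share of at least 10% and the one of lowest usage p in a gene, events with an unadjusted p under 0.05 or separate groups, the highest gene of each pathway role and those with an unadjusted p under 0.05. Cassette exons of Dgka, Dgkb, Dgkd and Dgkh were named besides, after their values were seen.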

Additional observations from a re-analysis of the deposited data

How the results depend on the processing

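No kinase gene, transcript, usage test or splicing event of the family, and no pathway gene, was called under any alternative run: the counts stayed at 0 with DESeq2 size factors, the DESeq2 test, other filters and pseudocounts, limma, each left-out mouse, the replicate block that pairs mice by number, and without both mice numbered 1, the last chosen after seeing the data. With the replicate block the Prmt9 log2 fold change was -1.707. It passed the limits with DESeq2 (-1.712), with the mice numbered 1 as a batch term (-1.707) and in the mice numbered 2 and 3 only (-1.674), and ran from -1.731 to -1.677 over left-out mice.

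These fits called few features of any kind: 12 of the 15 gene fits called none of all genes and the others at most 3, the transcript fits called none but for 112 with DESeq2, the usage fits called 4 to 249 genes and the event fits none. A count of 0 members under them is therefore no sign of stability.

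The sign of uncalled member differences followed the scaling and the mouse left out. The median log2 fold change of all genes was -0.011 as reported, 0.020 on log2(TPM + 1) and 0.060 on log2(TPM + 0.1), and the turned signs of members on these scales include that shift. On log2(TPM + 1) the log2 fold change turned for Dgka (0.015), Dgkb (0.045), Dgkd (0.084) and Dgkh (0.017), and on log2(TPM + 0.1) for those genes (0.017, 0.048, 0.086 and 0.020) and Dgki (0.001). Without a count filter Dgkd was 0.004. In the mice numbered 2 and 3 only, Dgka was 0.011, Dgke -0.014 and Dgkq -0.053. Over left-out mice the value ran from -0.158 to 0.106 for Dgka, -0.245 to 0.124 for Dgkb, -0.092 to 0.238 for Dgkg, -0.048 to 0.038 for Dgkd, -0.329 to 0.203 for Dgkh, -0.097 to 0.873 for Dgkk, -0.022 to 0.066 for Dgke, -0.143 to 0.003 for Dgkz, -0.38 to 0.142 for Dgki and -0.087 to 0.106 for Dgkq. The cause was not tested. Members with separate gene TPM rose from 0 to 3 in the mice numbered 2 and 3 only, against 51.2% of genes with a mean of at least 1 TPM. Transcripts with separate shares were 6 in the mice numbered 2 and 3 only, against 42.1% of such transcripts in all genes. Over left-out mice the counts were 0 to 2 members and 3 to 6 transcripts. Fewer mice overlap less often, and the shares over all genes were not computed there, so these counts set nothing apart.

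Transcript shares rest on kallisto's assignment of reads among overlapping models, and events outside the annotation were not analysed here.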
